A study of Mus musculus with 2 samples.

Results

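The genes examined were the neuregulin ligand genes Nrg1, Nrg2, Nrg3 and Nrg4 and the ErbB receptor genes Egfr, Erbb2, Erbb3 and Erbb4. Their signals were measured in RNA precipitated with the ribosomes of Drd2-expressing cells. The genes were chosen by name, as the 8 members of this ligand and receptor family among 22180 genes named by a probe set of the array. Each member had 1 probe set, and 0 probe sets were shared between a member and another gene. The RNA came from D2Cre::RiboTag mice, in which cells with a Cre driver for Drd2, the dopamine D2 receptor gene, carry a haemagglutinin-tagged ribosomal protein that allows their ribosomes to be precipitated. Medial prefrontal cortices of 5 adult mice were pooled, and 2 arrays were labelled as technical replicates of such a pool. The arrays form 1 group, and their titles read Drd2+ cell mRNA. No untagged, unprecipitated or otherwise treated sample was analysed here, so no enrichment over whole cortex was measured. For the same reason, RNA carried along in the precipitate without a tagged ribosome was not measured. The arrays are taken to share the pool, which the labels do not state outright. Their spread is technical and holds no variation between animals.

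Neuregulins carry an EGF-like domain that binds ErbB receptors, which are receptor tyrosine kinases that signal as pairs. Nrg1 and Nrg2 proteins bind ErbB3 and ErbB4, whereas Nrg3 and Nrg4 bind ErbB4. ErbB2 has no known ligand of its own and serves as a partner, ErbB3 has a weak kinase and depends on its partner, and the EGF receptor encoded by Egfr binds other ligands of the EGF family. In the cortex, ErbB4 is known above all from GABAergic interneurons, where neuregulin signalling shapes the excitatory synapses they receive, and ErbB3 is known from the oligodendrocyte lineage.

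Signals are given on a log2 scale, as the range of the values shows it to be. The series holds no control sample, and each array's background was taken from 1394 genes of olfactory and vomeronasal receptors (sensory receptor genes), whose 95th percentile stood at 5.61 in replicate 1 and 5.66 in replicate 2. Stricter thresholds were the 99th percentile of the same genes, at 6.64 on both arrays, and the 95th percentile of 31 genes of testis, liver and skeletal muscle (the out-of-tissue threshold), at 7.28 in replicate 1 and 7.10 in replicate 2. A gene counts as above a threshold where it exceeded it on both arrays. Probe sets bind with different strength, so a single gene is set against background here and not against another gene, and medians over lists are descriptions. Drd2 itself, the gene that drives the Cre, gave 10.78 and 10.70, far above every threshold.

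All 8 neuregulin and ErbB genes were above background, against 60.3% of all named genes. Of the 31 genes of testis, liver and skeletal muscle, 11 (35.5%) were above background too. Among these, the muscle gene Tnni2 gave 6.57 and 6.52 and lay above Nrg4, Erbb2 and Erbb3 on both arrays. Passing the background threshold alone therefore does not establish expression, for the members or for the lists below. The stricter thresholds split the family. Nrg1, Nrg2, Nrg3, Egfr and Erbb4 exceeded both of them, and Nrg4, Erbb2 and Erbb3 exceeded neither. Thus 5 of 8 members passed the 99th percentile, against 45.0% of named genes, and the same 5 passed the out-of-tissue threshold, against 38.0%. At the median of all probe sets, a threshold of 5.80 and 5.81, all 8 members passed, against 57.5% of named genes. The median log2 signal of the members was 7.79, against 6.36 for all named genes. Among 8 genes these shares are coarse, and they describe the members without a test.

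**Figure D1:**
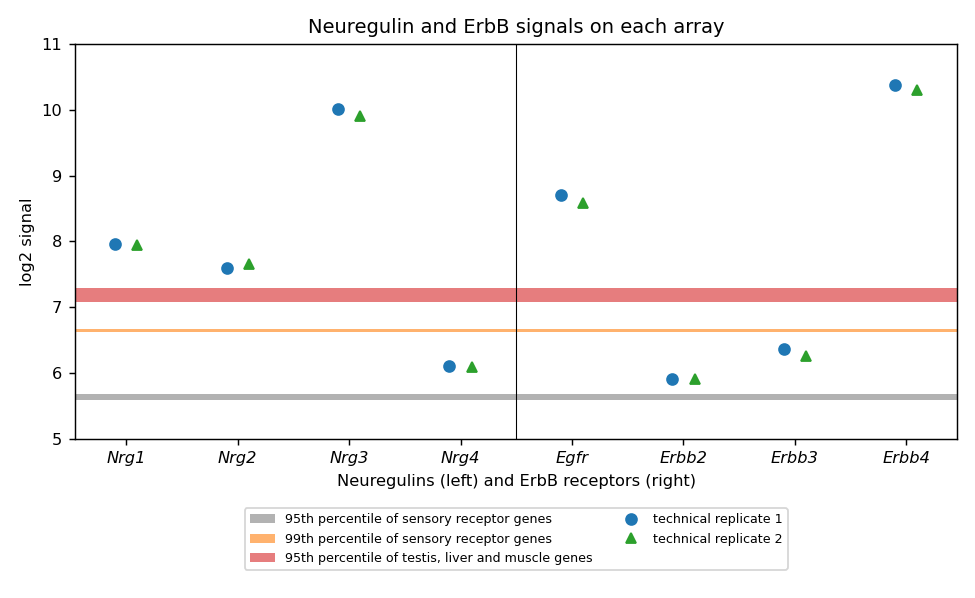
Log2 signal (vertical axis) of each neuregulin and ErbB gene on technical replicate 1 (circles) and technical replicate 2 (triangles). Each coloured band covers the values of a threshold on the 2 arrays. Nrg4, Erbb2 and Erbb3 lie between the lowest band and the 99th percentile of sensory receptor genes, and the other 5 genes lie above all bands.

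Among the ligands, Nrg3 was far above background. Nrg3 encodes a membrane-anchored ligand of ErbB4 that is largely restricted to the nervous system, and it gave 10.01 on replicate 1 and 9.91 on replicate 2 (9.96 ± 0.07, SD, n = 2 technical arrays, as for all values below). It exceeded background by 4.40 and 4.25 log2 units on replicates 1 and 2, and 0 of the 1394 sensory receptor genes reached it on either array. It stayed 2.74 and 2.81 units over the out-of-tissue threshold.

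Nrg1, which encodes many ligand isoforms made from alternative promoters, gave 7.96 on replicate 1 and 7.94 on replicate 2 (7.95 ± 0.01). The signal lay 2.35 and 2.28 units over background, and 1 sensory receptor gene reached it on each array. It exceeded the out-of-tissue threshold by 0.69 and 0.84 units. Acta1, a skeletal muscle gene of the set behind that threshold, gave 8.08 on replicate 2 and lay above Nrg1 there. The single value for Nrg1 does not tell its isoforms apart.

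Nrg2, a close relative of Nrg1 in structure, gave 7.59 on replicate 1 and 7.66 on replicate 2 (7.62 ± 0.05). It lay 1.98 and 2.00 units over background, and 2 sensory receptor genes reached it on each array. It exceeded the out-of-tissue threshold by 0.32 and 0.56 units. Acta1, a skeletal muscle gene of the set behind that threshold, gave 7.89 and 8.08 and lay above Nrg2 on both arrays.

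Nrg4, a ligand of ErbB4 known mainly as a factor released by adipose tissue, gave 6.10 on replicate 1 and 6.09 on replicate 2 (6.10 ± 0.01). It exceeded background by only 0.49 and 0.43 units, and 37 and 40 of the 1394 sensory receptor genes reached or passed it on replicates 1 and 2. Its signal lay inside the upper tail of the genes that set the background, so a low level and no expression could not be told apart.

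Among the receptors, Erbb4 was far above background. Erbb4, which encodes the only receptor of the family that both binds neuregulins and has a fully active kinase, gave 10.38 on replicate 1 and 10.30 on replicate 2 (10.34 ± 0.06). The signal lay 4.77 and 4.64 units over background and 3.11 and 3.20 units over the out-of-tissue threshold, and 0 sensory receptor genes reached it. Both the ErbB4-binding ligand Nrg3 and the receptor were thus among the 3 members that no sensory receptor gene reached on either array.

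The third of these was Egfr, which gave 8.70 on replicate 1 and 8.58 on replicate 2 (8.64 ± 0.08). It lay 3.09 and 2.92 units over background and 1.43 and 1.48 units over the out-of-tissue threshold. In the adult brain, Egfr is known from progenitors and glia as well as from neurons.

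Erbb3 gave 6.37 on replicate 1 and 6.25 on replicate 2 (6.31 ± 0.08). It exceeded background by 0.76 and 0.59 units, while 20 and 29 sensory receptor genes reached or passed it. Its signal was 0.27 and 0.39 units below the 99th percentile of those genes.

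Erbb2, the ligandless partner receptor, gave 5.91 on both arrays. It exceeded background by 0.30 and 0.25 units, and 45 and 47 sensory receptor genes reached or passed it. Like Nrg4 and Erbb3, it was above background and above the median of all probe sets, but under the 99th percentile and under the out-of-tissue threshold. The partner with which ErbB4 and ErbB3 are classically paired therefore had a signal that could not be told from the tail of the sensory receptor genes at the stricter thresholds.

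**Figure D2:**
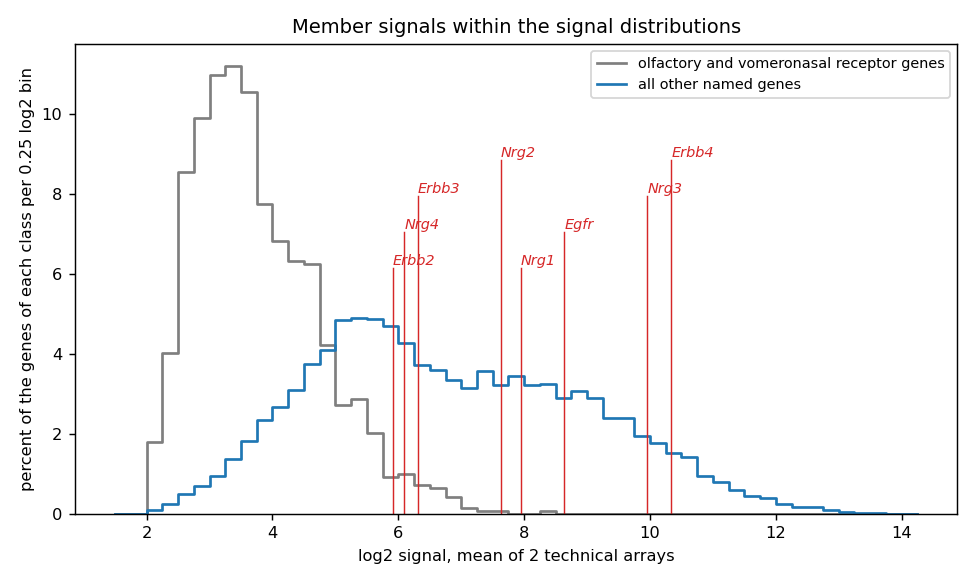
Share of genes (vertical axis, percent of each class per 0.25 log2 bin) by mean log2 signal over the 2 arrays, for the 1394 olfactory and vomeronasal receptor genes and for all other named genes. Red lines mark the members, with heights chosen only to separate the names. Erbb2, Nrg4 and Erbb3 fall in the upper tail of the sensory receptor genes, and Egfr, Nrg3 and Erbb4 lie beyond it.

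The arrays repeated each other closely for the whole family. The largest difference between arrays was 0.12 log2 units, for Egfr and Erbb3, and the median absolute difference over the members was 0.075, against 0.12 over all named genes. The difference, taken as replicate 2 minus replicate 1, was negative for 6 members, positive for Nrg2 and 0 for Erbb2. Among all named genes, 50.3% were lower on replicate 2, but that share spans all signals. In bins of 0.5 log2 units from 7.5 to 11, the median difference of named genes was -0.02 to -0.04. Nrg1, Nrg2, Nrg3, Egfr and Erbb4 lie in that range, where other genes also tended to be lower on replicate 2. From 5.5 to 6.5, where Nrg4, Erbb2 and Erbb3 lie, the median difference was 0. Set against genes within 0.5 log2 units of the same mean signal, each member lay within the usual spread. Differences larger than that of Egfr were seen in 32.5% of 2551 such genes, larger than that of Nrg3 in 33.1% of 1656 and larger than that of Erbb4 in 41.4% of 1319. For the members near background, 50.9% of 3375 like genes differed by more than Erbb3, 93.7% of 3654 by more than Nrg4 and 96.3% of 3833 by more than Erbb2. No member reached a difference of 0.5 units, which 3.39% of named genes exceeded. The margins of Nrg4 and Erbb2 over background were thus larger than their own technical difference. Even so, 5% of genes of like signal differed between arrays by more than 0.41 units near Nrg4 and 0.43 units near Erbb2, which is close to or above those margins.

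**Figure D3:**
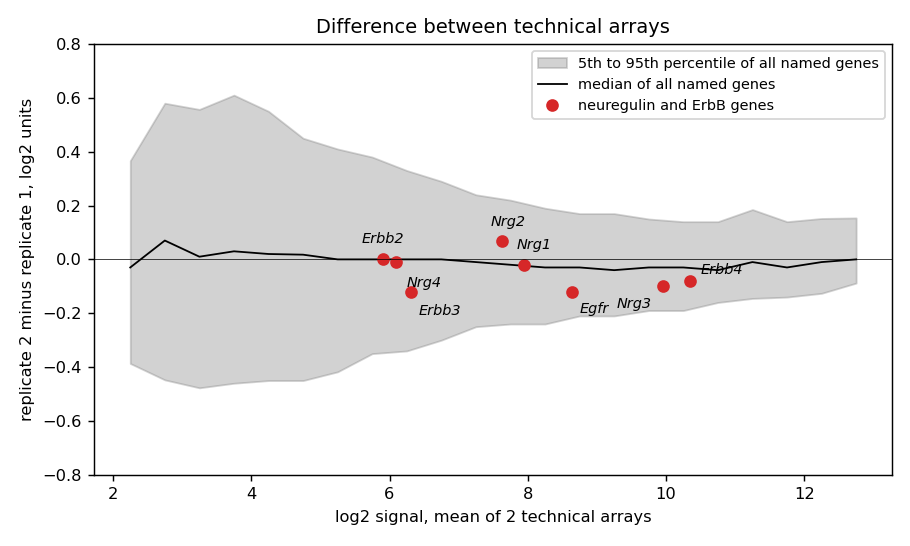
Difference between arrays (vertical axis, replicate 2 minus replicate 1, log2 units) against mean log2 signal. The grey area spans the 5th to 95th percentile of all named genes in bins of 0.5 log2 units, the black line is their median, and red points are the 8 neuregulin and ErbB genes. All 8 lie inside the grey area, and the largest absolute difference among them is 0.12.

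The other genes of the pathway were placed in 10 lists by role, with 70 of their 84 genes measured. The other 14 genes had no probe set that names them alone and were not analysed here. Of the 70, 66 were above background, 57 above the 99th percentile and 52 above the out-of-tissue threshold. These are 94.3%, 81.4% and 74.3%, beside 60.3%, 45.0% and 38.0% of all named genes. The median log2 signal of the 70 genes was 8.86.

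Of the 6 measured ligands of the EGF family outside the neuregulins, 3 were above background, a share near the 60.3% of all named genes. Tgfa, which encodes transforming growth factor alpha, was at 7.38 ± 0.04, and Hbegf, whose product binds both the EGF receptor and ErbB4, was at 7.48 ± 0.04. Both exceeded the out-of-tissue threshold. Ereg, the epiregulin gene, averaged 5.76 over probe sets at 5.90 and 5.62, of which the lower was under background on replicate 2. Egf at 5.08 ± 0.07, the epithelial mitogen gene Epgn at 5.09 ± 0.30 and the betacellulin gene Btc at 4.80 ± 0.02 were not above background.

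Transmembrane proteins with an EGF-like domain related to that of the neuregulins gave signal as well. Cspg5, the gene of the proteoglycan neuroglycan C, was at 11.08 ± 0.09 and Tmeff2 at 8.35 ± 0.10. Tmeff1 averaged 6.77 over probe sets at 10.07 and 3.47, which lay on opposite sides of every threshold. The mean of this gene therefore describes neither probe set.

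Proteases that release neuregulins and ErbB ligands from the membrane were above background in 7 of 7 cases, against 60.3% of all named genes. That count rests on small margins, since 4 of the 7 passed the median of all probe sets, against 57.5%. Each stricter threshold was passed by 3 of the 7, a share near the 45.0% and 38.0% of all named genes that did. Bace1, the beta-secretase known to cleave Nrg1 in the nervous system, was at 9.64 ± 0.02, and its probe sets at 9.80 and 9.48 lay close together. Adam10 was at 10.28 ± 0.03 and Adam9 at 9.43 on both arrays. Adam17, which sheds many ligands of the EGF family, was at 6.46 ± 0.01, above background but under the 99th percentile. Adam12 at 5.85 ± 0.08 and Bace2 at 5.83 ± 0.05 were close to background. Adam19 averaged 5.72 over probe sets at 7.05 and 4.38. The probe set at 7.05 passed the 99th percentile, and the probe set at 4.38 was under background on both arrays.

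Gamma-secretase cuts the membrane stubs that shedding leaves, those of ErbB4 and Nrg1 among them. All 5 measured genes of its subunits were above background, against 60.3% of all named genes. Of these, 4 passed the out-of-tissue threshold, against 38.0%. Ncstn, the nicastrin gene, was at 10.24 ± 0.06, Psenen at 11.62 ± 0.01, Aph1b at 7.41 ± 0.08 and the catalytic subunit gene Psen2 at 7.01 ± 0.06. Aph1a averaged 8.06 over probe sets at 9.40 and 6.73. The intracellular fragment of ErbB4 that is set free binds nuclear and cytoplasmic proteins. Of 5 measured genes of such partners, 5 were above background, 3 above the 99th percentile and 2 above the out-of-tissue threshold. The shares of all named genes were 60.3%, 45.0% and 38.0%, so the last count is near the share of all genes. The adaptor gene Tab2 was at 8.80 ± 0.15 and Stat5b at 8.49 ± 0.18, while Wwox at 7.11 ± 0.12 and Stat5a at 5.99 ± 0.07 did not pass the out-of-tissue threshold. Yap1 averaged 5.92 over probe sets at 7.70 and 4.15, of which the lower was under background on both arrays.

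Scaffold proteins hold ErbB receptors at synapses and membranes. All 6 measured scaffold genes exceeded the out-of-tissue threshold, against 38.0% of all named genes, with a median of 10.08. Dlg4, which encodes PSD-95, the postsynaptic protein that binds the tail of ErbB4, was at 11.28 ± 0.04. Erbin, named for its binding to ErbB2, was at 9.57 ± 0.11, Dlg1 at 10.23 ± 0.10 and Dlg2 at 10.19 ± 0.12. These genes serve many synaptic receptors, so their signal is not specific to ErbB signalling.

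Adaptors that dock on phosphorylated ErbB receptors were above background in 12 of 12 measured cases. Of the 12, 10 passed the 99th percentile and 9 the out-of-tissue threshold. The shares of all named genes were 60.3%, 45.0% and 38.0%. Grb2, which links receptors to Ras, gave 10.08 and 9.91 on replicates 1 and 2, its partner Sos1 was at 9.38 on both arrays, and Gab1, a docking protein for the phosphoinositide kinase, was at 7.39 ± 0.05. Members of the Shc family differed in their place against the thresholds. Shc1 at 6.62 ± 0.05 was under the 99th percentile on 1 of the arrays, whereas Shc2 at 8.32 ± 0.04 and Shc3, the neuronal form, at 10.87 ± 0.03 exceeded every threshold. Grb7, an adaptor known as a neighbour of Erbb2 in the genome, was at 6.29 ± 0.05, above background but, as Erbb2, under the 99th percentile and the out-of-tissue threshold.

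The kinase cascades downstream gave signal in every gene that was measured. All 10 measured genes of the phosphoinositide 3-kinase, Akt and mTOR route exceeded the out-of-tissue threshold, against 38.0% of all named genes. Among them were the regulatory subunit gene Pik3r1 at 10.60 ± 0.09, the catalytic subunit gene Pik3ca at 9.52 ± 0.13, and Akt1 and Mtor, each at 10.08 ± 0.01. All 5 measured genes of the Ras, Raf and ERK route exceeded that threshold too. Braf was at 11.40 ± 0.02, Map2k1 at 11.22 ± 0.01, Nras at 8.15 ± 0.06 and Araf at 7.42 ± 0.03. The other 5 genes of that list were not analysed here, and no ERK gene was among the 5 measured. In the phosphoinositide 3-kinase, Akt and mTOR list, 3 of 13 genes were not analysed. These routes are shared by most receptor tyrosine kinases.

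Genes listed as negative regulators of ErbB receptors were above background in 10 of 11 cases, against 60.3% of all named genes. Whether each of them acts in that direction was not tested. Errfi1, the gene of a feedback inhibitor that binds the kinase domain, was at 8.65 ± 0.03. Rnf41, which encodes the ubiquitin ligase Nrdp1 that lowers ErbB3 and ErbB4 protein, gave 11.02 and 10.97 on replicates 1 and 2, and Cbl, a ubiquitin ligase for the EGF receptor, was at 9.46 ± 0.06. Lrig1, whose product promotes receptor breakdown, was at 7.12 ± 0.21 and passed the out-of-tissue threshold on replicate 2 only. Lrig3 gave 5.90 on replicate 1 and 5.57 on replicate 2 and was above background on replicate 1 only. Proteins were not measured, so the signals show precipitated RNA and not receptor breakdown.

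**Figure D4:**
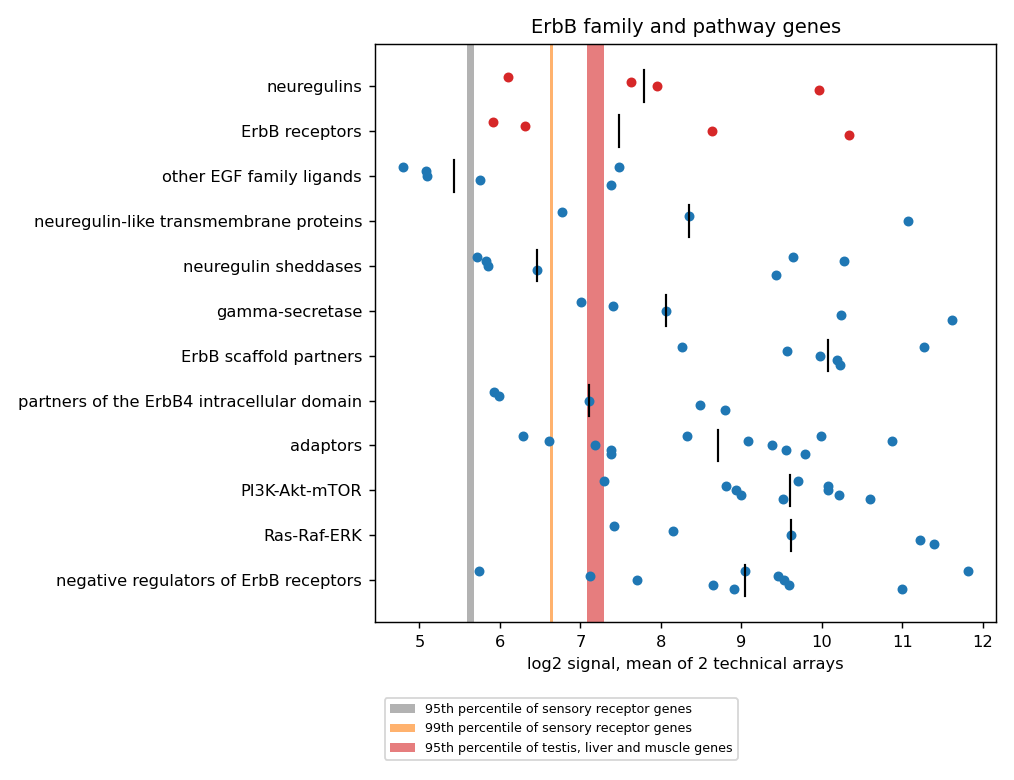
Mean log2 signal over the 2 arrays (horizontal axis) of each measured gene of the family (red) and of the pathway lists (blue), with 1 row per list. Black bars are list medians and coloured bands cover the values of each threshold on the 2 arrays. All 6 scaffold genes lie above every band, while 3 of 6 other EGF family ligands lie below background.

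Markers of 8 cell classes, 59 of them measured, were set beside the family. All 8 pan-neuronal, all 5 glutamatergic and all 7 GABAergic markers exceeded the out-of-tissue threshold, against 38.0% of all named genes. The GABAergic class, in which Erbb4 is best known, had signals between 8.20 and 13.74 over both arrays, and the glutamatergic markers lay between 9.46 and 12.41. Markers of both classes thus gave signal in the RNA that held Erbb4 and Nrg3, and which of these cells their signals came from was not tested. In a bulk precipitate, fewer cells of a type and less RNA per cell cannot be told apart.

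Glial markers gave signal beside Erbb3 and Egfr. All 8 measured oligodendrocyte markers were above background, 6 of them above the out-of-tissue threshold, with signals between 6.46 and 9.40 over both arrays. All 7 markers of oligodendrocyte precursors were above background and 2 above the out-of-tissue threshold, a share below the 38.0% of all named genes, with signals between 6.07 and 8.10. All 8 astrocyte markers were above background and 6 above the out-of-tissue threshold, between 6.65 and 9.54. All 23 glial markers exceeded background, against 60.3% of all named genes, and 20 exceeded the 99th percentile, against 45.0%. Bmp4, Cspg4 and Opalin did not exceed it on both arrays and lay, like Nrg4, Erbb2 and Erbb3, in the range of the upper tail of the sensory receptor genes. The part of glial RNA in the Erbb3 and Egfr signals was not tested. Of the 8 microglial markers, 8 were above background, 4 above the 99th percentile and 3 above the out-of-tissue threshold. Of the 8 endothelial and mural markers, 7 were above background, 4 above the 99th percentile and 2 above the out-of-tissue threshold, and Ly6c1 at 4.37 ± 0.32 was the marker not above background. At the stricter thresholds these shares were near or below the 45.0% and 38.0% of all named genes.

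**Figure D5:**
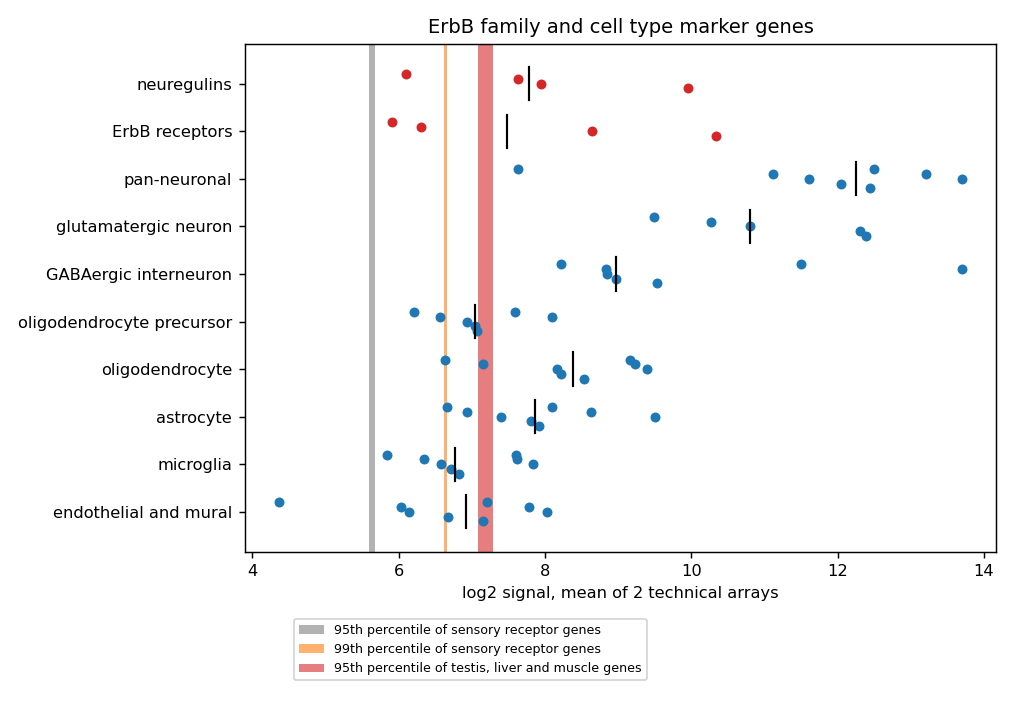
Mean log2 signal over the 2 arrays (horizontal axis) of the family (red) and of cell type markers (blue), with 1 row per list, list medians as black bars and thresholds as coloured bands. All pan-neuronal, glutamatergic and GABAergic markers lie above the bands, and Ly6c1 is the plotted marker left of the background band.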

How the data were processed

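The authors deposited 1 value per probe set and array for 34472 probe sets, on what their range shows to be a log2 scale. Per the labels' protocols, RNA was labelled with an Affymetrix whole-transcript kit. How background was corrected, probes summarised and arrays normalized is not given in the sources used here, and no scanner file was used. Of the columns with values, 0 were left out.

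Gene names came from the annotation of the platform: 23521 probe sets named 1 gene, 1814 several (used for none) and 9137 are unnamed here. Of the 23521, 23328 matched a RefSeq gene of GRCm38.p6 by gene identifier, which changed 0 symbols. No genome build is named for the values, so no coordinates are given. Probe sets of a gene were averaged. Named genes were all members, Drd2, the first 4 measured genes of each pathway list as written and genes called differently from most of their list. Cell type markers are given as counts and ranges instead. Other list genes were named after their values were seen. Members and lists were chosen with earlier results of these data known.

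The arrays are technical replicates of 1 group, so no test and no p-value is given. Their number limits precision. In simulated data with a technical SD of 0.2, genes were set 1 log2 unit above or below the threshold. Of those set above, 100% were called, and of those set below, 0%. That shift is larger than the margins of Nrg4, Erbb2 and Erbb3, so the simulation does not bear on their calls. Alternatives were other thresholds, the highest probe set, genes with 1 probe set, each array alone and quantile normalization. Python 3.11.15 with pandas 2.3.3 was used.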

Additional observations from a re-analysis of the deposited data

How the results depend on the processing

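The count of neuregulin and ErbB genes above background was 8 with the median of all probe sets as threshold, the highest probe set, genes with 1 probe set, each array alone and quantile normalization. It was 5 at the 99th percentile of sensory receptor genes and 5 at the out-of-tissue threshold. The median signal of the members over the threshold, 2.15 log2 units, moved to 1.15 at the 99th percentile, 0.60 at the out-of-tissue threshold and 1.98 at the median of all probe sets, as higher thresholds must move it. It ranged from 2.14 to 2.16 with each array alone. Relative to the 99th percentile, Nrg4 lay at -0.54, Erbb2 at -0.73 and Erbb3 at -0.33 log2 units, and relative to the out-of-tissue threshold at -1.09, -1.28 and -0.88. The out-of-tissue threshold falls between Apoa2 (7.09 and 6.67) and Odf1 (7.46 and 7.54 on replicates 1 and 2), and Odf1 averages probe sets at 4.98 and 10.02. No member lies between these genes on either array. Pathway genes above background numbered 52 to 67 and marker genes 39 to 58 over all alternatives. The largest difference between arrays among the members was 0.12 to 0.13. No paired analysis was possible because the series has 1 group.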

Other observations

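Nrg3os, a gene named as lying on the opposite strand of Nrg3, was looked up after the data were seen. It gave 3.47 on replicate 1 and 3.75 on replicate 2, under background by 2.14 and 1.91 log2 units, while Nrg3 itself was above every threshold.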
